A study of Homo sapiens with 3 samples.

Results

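A375 is an established human melanoma line that grows attached to plastic, and the results below compare A375 cells that had been held in suspension and then allowed to reattach for 1 day with A375 cells that had never been suspended. The comparison took every probe with a detection p-value under 0.01 on the adherent array, the reattached array or both, which kept 18195 of the 47323 probes on the array. These probes carried 10822 named genes of the 20046 on the array. Of those genes, 10085 were detected on both arrays, 567 on the adherent array alone and 170 on the reattached array alone. At the edge of the rule, the 261 probes whose lower detection p-value was 0.00909 were kept and the 31 probes at 0.0104 were left out, with median signals of 69.3 and 71.2 respectively.

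Total RNA was measured on Illumina bead arrays in 3 states of the same line: adherent, suspended and reattached. All 3 were kept in the same serum-containing medium. Suspended cells came from adherent cells plated on sterile plastic dishes, and reattached cells came from suspended cells moved to culture dishes with fresh medium, so the reattached cells also had a change of dish and of medium that cannot be told apart from reattachment. The length of suspension is not stated in the labels. Each state had 1 array, so every value below is a size with no replicate check, and no test between states was possible.

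Cells that need a surface for growth read it through integrins, transmembrane receptors that join the extracellular matrix to the actin cytoskeleton at focal adhesions. Loss of that contact alters signalling through focal adhesion kinase, the YAP and TAZ coactivators and NF-kB, and melanoma cells that survive it can settle again elsewhere. NF-kB is a family of dimeric transcription factors that is held in the cytoplasm by inhibitors of the IkB type and, once released, turns on cytokine, chemokine and adhesion genes.

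The adherent array had 17761 detected probes, the suspended array 17466 and the reattached array 16826, with median signals of detected probes of 233, 262 and 247. The melanocytic markers SOX10, MIA, CSPG4, MITF, S100A1 and MCAM were detected on all 3 arrays, 6 of the 12 listed. The pigment-cell genes PMEL, MLANA, TYR and TYRP1, and S100B, were not detected on any array. SOX10, a neural crest transcription factor, read 2484 adherent, 3698 suspended and 2835 reattached. Of 10 epithelial markers 3 were detected in adherent and in reattached cells, of 9 fibroblast markers 4 and 3, of 7 leukocyte markers 3 and 3, and of 5 endothelial markers 1 and 0. The summed signal of the fibroblast list was 801 adherent and 742 reattached, and that of the epithelial list 2668 and 2371. Undetected markers add background to these sums, and KRT10 alone gave 2118 and 1861 of the epithelial ones.

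After 1 day of reattachment, the profile lay close to that of cells never suspended. Differences below are log2 levels after background correction and normalization, reattached minus adherent, and scanner signals are the uncorrected intensities, which still hold a background near 51. Where the order of the 3 states is stated, it is that of the normalized levels. Among the 10822 genes, 54.2% lay within 1.1-fold of the adherent level, 80.7% within 1.2-fold and 98.0% within 1.5-fold. Across the 10085 genes detected on both arrays, the log2 levels had a Pearson correlation of 0.994 and a Spearman correlation of 0.993, which is a description across genes of 2 arrays and not a replicate measure. Past a 2-fold difference lay 15 genes (0.139%), of which 4 were higher (0.037%) and 11 lower (0.102%). Past 1.5-fold lay 95 higher genes (0.878%) and 118 lower genes (1.09%), 1.97% in all. The median difference of all genes was 0.0030 and the standard deviation across genes was 0.22. The suspended array set against the same adherent array had a standard deviation of 0.30 across 10994 genes, with 56 genes at 2-fold or more higher and 72 lower. Both comparisons use the same adherent array, so an error on it enters both.

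**Figure D1:**
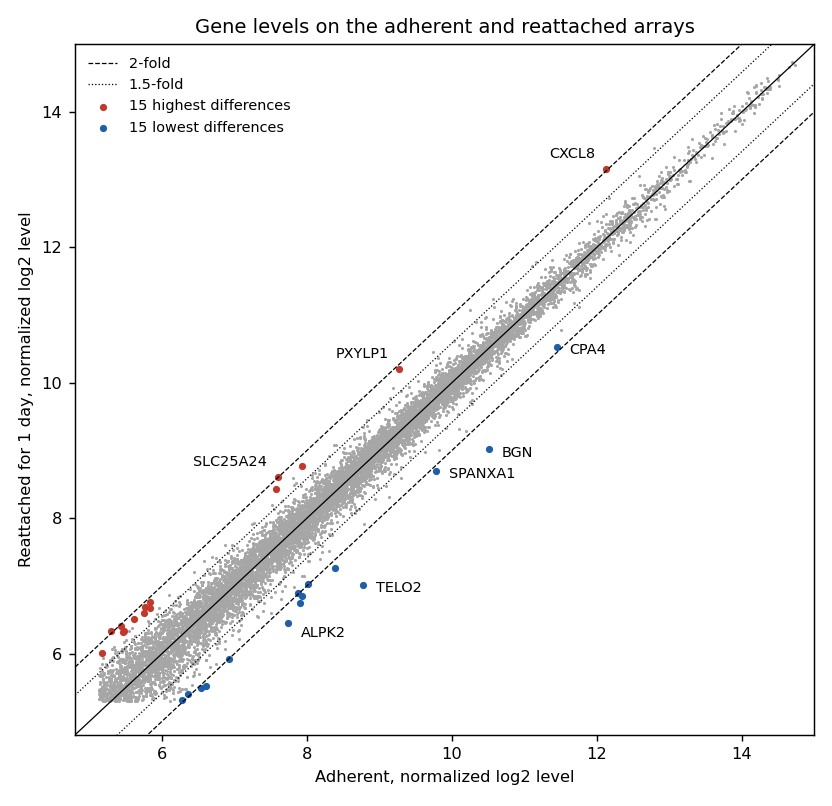
Normalized log2 level of each gene detected on both arrays, adherent on the x axis and reattached for 1 day on the y axis, with 1 array per state. Grey points are the 10085 genes, coloured points the 15 highest and 15 lowest differences, the solid line equality, and the dashed and dotted lines 2-fold and 1.5-fold. CXCL8 is the bright gene on the upper 2-fold line, and TELO2 and BGN lie farthest under the lower one.

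Large differences sat mostly among dim genes. When the genes were split by level into 5 classes of equal size, 4.62% of the dimmest class passed 1.5-fold, and in the brighter classes 2.54%, 1.29%, 0.878% and 0.508%. The standard deviation across genes fell in the same order, from 0.28 to 0.15. Of the 15 highest genes named below, 7 were in the dimmest class, and of the 15 lowest, 4. The reattached array also had fewer detected probes, and its lowest detected level was 5.29 on the log2 scale against 5.13 on the adherent array. For 276 genes detected on 1 array, the value on the other was a bound that gave no direction. Their difference was entered as 0, so they count as within 1.1-fold in the shares above.

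The lowest gene after reattachment was TELO2, which encodes a factor that stabilizes the kinases of the mTOR and ATM family. Its signal was 465 adherent, 211 suspended and 155 reattached. The normalized difference was -1.76, or 3.39-fold lower, on its only detected probe. Both states with a history of suspension were low, and the reattached level was under the suspended one.

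BGN encodes biglycan, a small proteoglycan of the extracellular matrix. It read 1493 adherent, 456 suspended and 518 reattached, a difference of -1.50 or 2.83-fold lower. The reattached level had stayed near the suspended level. SERINC2, a member of the serine incorporator family of membrane proteins, read 361, 158 and 177 in the same order and was 2.18-fold lower (-1.12). PLAC8, a small cysteine-rich protein, read 288, 133 and 156 and was 1.99-fold lower, with a second probe at -0.58. VIPR1, the receptor for vasoactive intestinal peptide, read 267, 111 and 146 and was 1.98-fold lower. In all of these genes the reattached value lay closer to the suspended than to the adherent one.

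Other low genes also lay between the adherent and the suspended value. The normalized reattached levels of ALPK2, CPA4 and TM4SF18 were closer to the adherent level. FGFBP1, which carries fibroblast growth factors released from the matrix, read 269 adherent, 89.4 suspended and 136 reattached, 2.21-fold lower than adherent. ALPK2, an alpha-type kinase, read 245, 64.2 and 117 and was 2.43-fold lower, and its suspended value was not above background. CPA4, a secreted carboxypeptidase, was among the brightest, with 2790 adherent, 324 suspended and 1420 reattached, 1.89-fold lower (-0.92). These genes read lowest in suspension. TM4SF18, a membrane protein of the transmembrane 4 L6 family, read 274, 79.1 and 143, and its 2 probes gave -1.07 and -1.08. SCNN1A, the alpha subunit of the epithelial sodium channel, read 124, 58.7 and 76.5 and was 2.06-fold lower. MAL2, an apical trafficking protein of epithelia, was detected in adherent cells alone at 146, against 64.1 and 70.1, and was at least 2.91-fold lower. ALPK2, FGFBP1, CPA4, TM4SF18, SCNN1A and MAL2 belong to a list drawn up from earlier results on these arrays in suspension, so their low values here support nothing about the list.

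**Figure D2:**
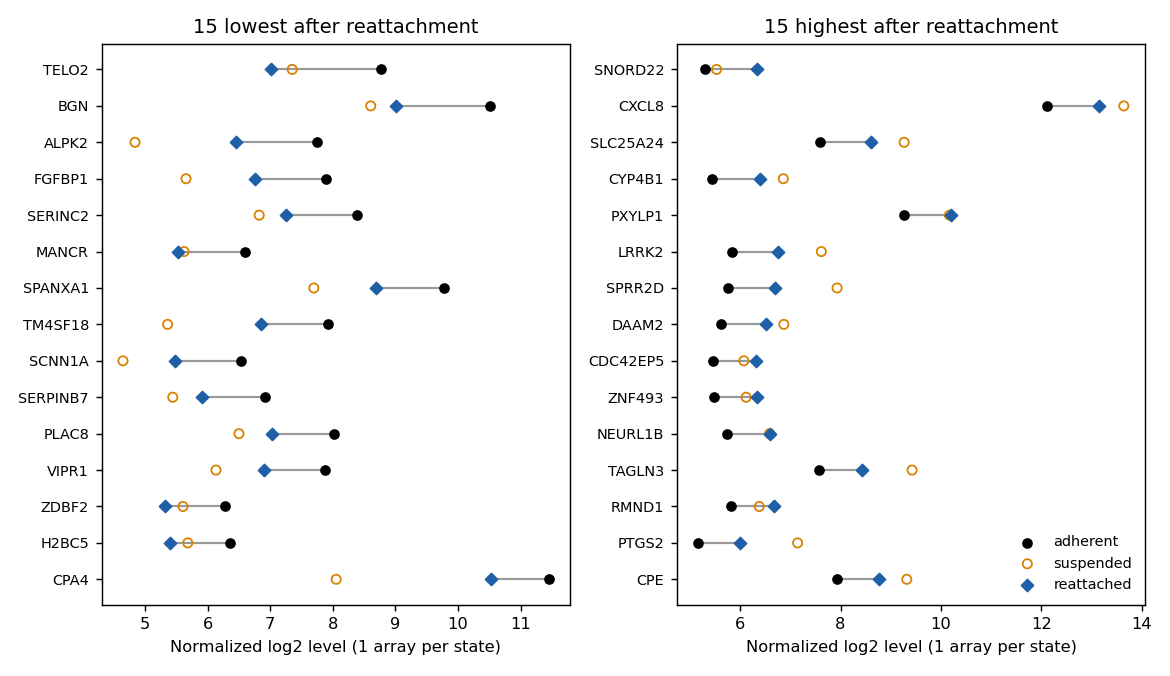
Normalized log2 level of the 15 lowest and the 15 highest genes among those detected on both arrays, with 1 array per state. Filled circles are adherent, open circles suspended and diamonds reattached cells, and the grey line joins adherent to reattached. Among the lowest genes, the diamond lies beyond the open circle in TELO2, MANCR, ZDBF2 and H2BC5. Among the highest, it does so in SNORD22, PXYLP1, CDC42EP5, ZNF493, NEURL1B and RMND1. In CPA4, CXCL8 and TAGLN3 it lies between both circles.

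The noncoding RNA MANCR read 129 adherent, 88.3 suspended and 77.6 reattached and was 2.12-fold lower. SERPINB7, an intracellular serine protease inhibitor, read 153, 81.8 and 91.1 and was 2.01-fold lower, but its second probe gave only -0.19. ZDBF2, an imprinted zinc finger gene, read 110, 87.5 and 71.8 and was 1.96-fold lower. All of these reattached values were near background, where 1.5-fold differences were most frequent.

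Among the higher genes, CXCL8 stood out by its brightness. It encodes interleukin-8, a chemokine that attracts neutrophils and is secreted by many melanomas. Its signal was 4487 adherent, 13462 suspended and 8450 reattached. Its 2 detected probes gave differences of 1.03 and 1.29, the first equal to 2.04-fold higher. The reattached level lay between the other two. CXCL8 belongs to a list drawn up from genes high in suspension on these arrays, so its high value here supports nothing about the list.

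The remaining highest genes were dimmer. SNORD22, a small nucleolar RNA, read 72.9 adherent, 84.9 suspended and 110.0 reattached and was 2.05-fold higher on 1 probe. SLC25A24, a mitochondrial carrier of ATP-Mg and phosphate, read 225, 700.1 and 396 and was 2.01-fold higher on its brighter probe, while its second probe gave -0.37. The probes of SLC25A24 thus disagreed in direction. FDCSP, a small secreted peptide, was not detected in adherent cells at 68.6, read 97.5 in suspension and 108 after reattachment, and was at least 2.25-fold higher. PXYLP1, a phosphatase of glycosaminoglycan synthesis, read 645, 1278 and 1140, and its 2 probes gave 0.94 and 0.77. LRRK2, a large kinase linked to Parkinson disease, read 90.0, 248 and 137 and was 1.91-fold higher. SLC25A24 and LRRK2 are in the same list of genes high in suspension as CXCL8, with the same limit. LAMA4, a laminin chain of basement membranes, read 1226, 3533 and 2044, with probes at 0.83 and 0.34.

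Where a gene had 2 or more detected probes, the second gave another reading on the same arrays, which does not speak to variation between cultures. The second probe is the dimmer by construction. Probes of a gene may also read different transcripts, which was not examined. In 2804 genes both probes had a direction. When the brighter probe differed by under 1.1-fold, the next probe shared its sign in 51.2% of 1620 genes (exact 95% binomial interval across genes 48.8 to 53.7%). At 1.1 to 1.2-fold the share was 58.6% of 746 genes, and at 1.2 to 1.5-fold 63.0% of 386. At 1.5-fold or more it was 86.5%, or 45 of 52 genes (interval 74.2 to 94.4%), but the second probe itself passed 1.5-fold in only 13. The median difference of the brighter probe in these 52 genes was 0.70 in size, and that of the second probe in the same direction 0.36. Over all 2804 genes the 2 probes' differences had a Pearson correlation of 0.26 and a Spearman correlation of 0.20, as a description across genes that share both arrays. For a single gene, a difference under 1.2-fold on 1 probe was thus often not shared by the next.

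**Figure D3:**
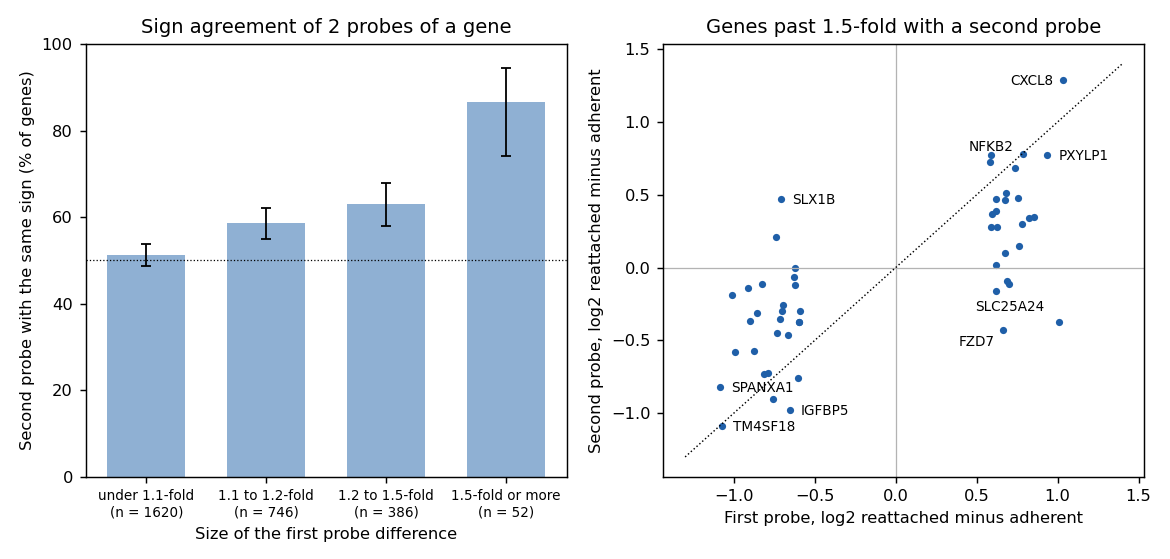
Left, the share of genes whose second detected probe had the same sign as the brighter one, by the size of the brighter probe's difference, with bars for the share and whiskers for the exact 95% binomial interval across genes, and a dotted line at 50%. Right, the log2 differences of both probes for the 52 genes past 1.5-fold, with the dotted line at equality. The share was 51.2% in the smallest class and 86.5% in the largest, and SLC25A24, FZD7 and SLX1B lie in the quadrants of opposite sign.

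Among the named genes, 2341 had 2 detected probes and 552 had 3 or more. In 13 of these every detected probe passed 1.5-fold in 1 direction, with clone-type symbols left out of the 13. The 6 higher ones were CXCL8, PXYLP1, NFKB2, FCGR2A, ST6GAL1 and CDCP1. NFKB2 encodes the p100 precursor of NF-kB p52, read 128 adherent, 196 suspended and 189 reattached, and gave 0.78 on both probes. ST6GAL1, the sialyltransferase that caps N-glycans, read 1062, 2026 and 1511, with probes at 0.59 and 0.77. FCGR2A, an Fc receptor, read 135, 261 and 195 with probes at 0.74 and 0.68, and CDCP1, a transmembrane substrate of Src kinases, read 119, 227 and 156 with probes at 0.59 and 0.72. In each of these the adherent value was the lowest of the 3.

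The 7 lower ones were SPANXA1, TM4SF18, SULF2, MGP, DHRS2, IGFBP5 and IL1RL1. SULF2, an enzyme that removes sulfates from heparan sulfate in the matrix, read 919 adherent, 414 suspended and 516 reattached, and its 3 probes gave -0.81, -0.73 and -0.70. MGP, the matrix Gla protein that inhibits calcification, read 192, 128 and 122 with probes at -0.79 and -0.72. The normalized levels of both matrix genes lay closer to the suspended than to the adherent level. IGFBP5, a binding protein of insulin-like growth factors, read 517, 437 and 326 with probes at -0.66 and -0.98, so its reattached value was the lowest of the 3. IL1RL1, the receptor of interleukin-33, read 254, 116 and 171 with probes at -0.60 and -0.76. DHRS2, a short-chain dehydrogenase, read 199, 105 and 128 with probes at -0.76 and -0.90.

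The 47 gene lists set against these genes had 650 different genes with a value. In 28 lists no gene passed 1.5-fold, and 30 lists had a median within 0.1 of 0 on the log2 scale. Only 1.97% of all genes passed 1.5-fold, so a short list can hold none without being steadier than other genes. The 13 reference genes measured, of the kind used to normalize expression, had a median of -0.0054 and ranged from -0.18 for GAPDH to 0.15 for IPO8. The list with the highest median, apart from one drawn up from genes high in suspension on these arrays, was that of NF-kB targets and inflammatory cytokines.

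**Figure D4:**
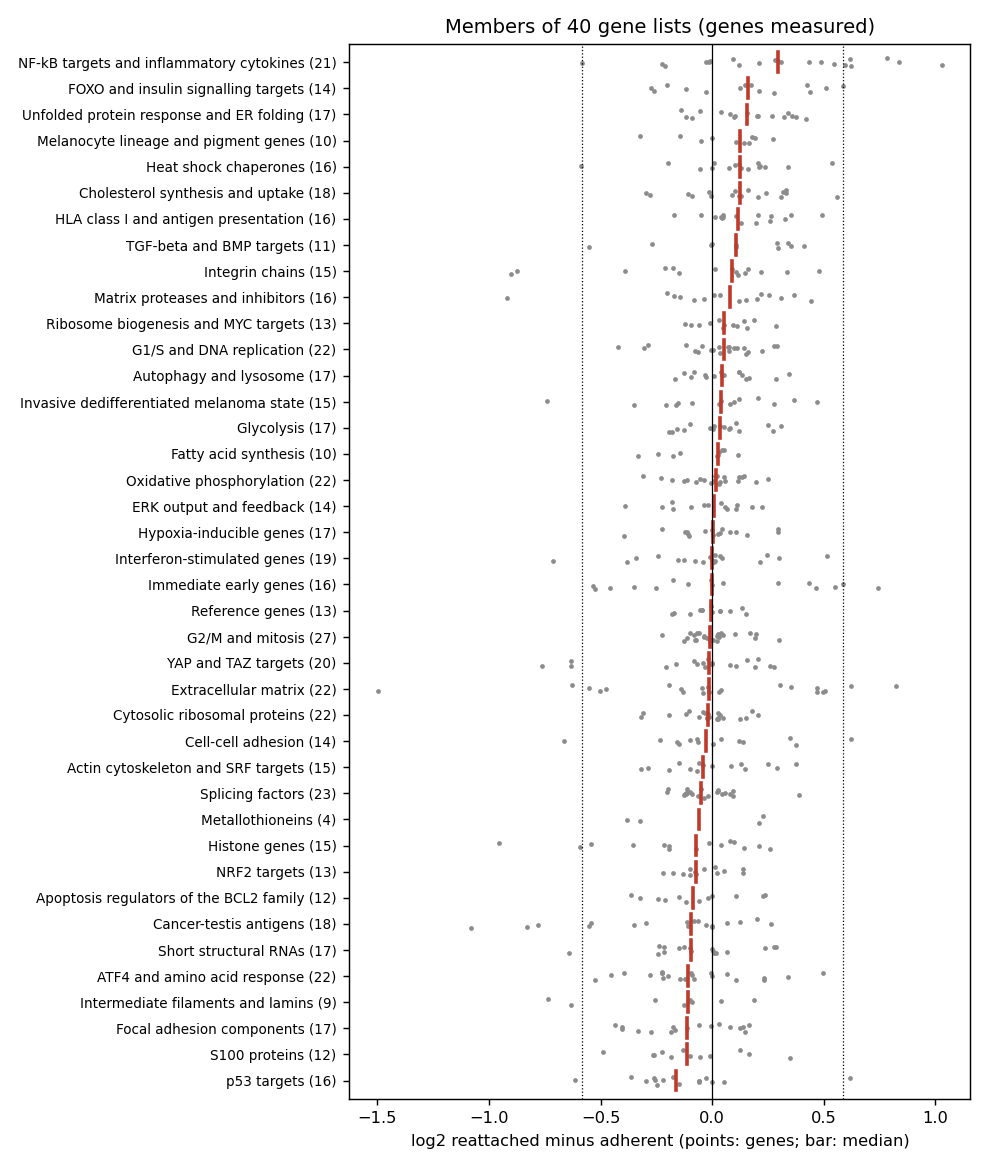
Log2 difference of reattached minus adherent cells for every measured gene of 40 lists, ordered by median, with the number of genes measured in parentheses. Grey points are genes, red bars medians, and dotted lines mark 1.5-fold in either direction. The NF-kB list has the highest median, at 0.29, and the p53 list the lowest, at -0.16.

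Of 24 genes in the NF-kB list 21 were measured, all on both arrays. Their median difference was 0.29, against 0.0030 over all genes. Of the 21, 15 were above 0 and 6 below, and 6 passed 1.5-fold higher, where 0.878% of all genes did, and 0 passed 1.5-fold lower, against 1.09%. The 6 were CXCL8, PTGS2, NFKB2, ICAM1, IL24 and CCL20. PTGS2 and CCL20 were in the dimmest class by level, where 48 of 2165 genes passed 1.5-fold higher. NFKB2 and ICAM1 were in the next class, where 19 of 2164 did. In 4 genes of the list a second probe gave a direction, and in all 4 both probes were above 0. The list was used with earlier results of these arrays known, and CXCL8 is also in the list drawn up from genes high in suspension.

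PTGS2 encodes cyclooxygenase-2, the inducible enzyme of prostaglandin synthesis. It read 69.5 adherent, 188 suspended and 94.7 reattached, a difference of 0.84, near background in adherent cells. ICAM1, the ligand of leukocyte integrins, read 107, 180 and 142 and differed by 0.62. Both were highest in suspension. IL24, a cytokine of the interleukin-10 family, was bright, with 2292, 4170 and 3301, and its probes gave 0.62 and 0.47. CCL20, a chemokine, read 75.0, 96.7 and 93.5 and differed by 0.60. CXCL1, a chemokine close to CXCL8, read 915, 1238 and 1258 and differed by 0.55, so its reattached value did not lie under the suspended one.

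The subunits and inhibitors of the pathway spanned a wide range, with NFKB2 at 0.78 on both probes. RELB, the partner of p52, read 127 adherent, 170 suspended and 158 reattached and differed by 0.49. NFKB1, which encodes p105 and p50, read 2629, 3931 and 2999.7 and differed by 0.28. NFKBIA, which encodes the inhibitor IkB-alpha and is itself a target, read 879, 1230 and 1031 and differed by 0.31. NFKB1 and NFKBIA were highest in suspension and lay between both other states after reattachment, while the normalized level of RELB was 6.56 adherent, 6.96 suspended and 7.05 reattached. TNFAIP3, the ubiquitin-editing inhibitor A20, ran the other way, with 98.5, 126 and 87.5 and a difference of -0.22.

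The list also held genes below 0. IL1A, an interleukin-1 cytokine, read 260 adherent, 399 suspended and 324 reattached and differed by 0.44, while IL1B read 196, 157 and 137 and differed by -0.58. These interleukin-1 genes had opposite signs. CCL2, the monocyte chemokine, read 729, 393 and 689 and differed by -0.01, so the reattached value lay next to the adherent one. IL6 read 72.7, 59.9 and 79.6 and differed by 0.29, and all 3 values were near background. IRF1, an interferon regulatory factor, read 165, 149 and 143 and differed by -0.21.

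**Figure D5:**
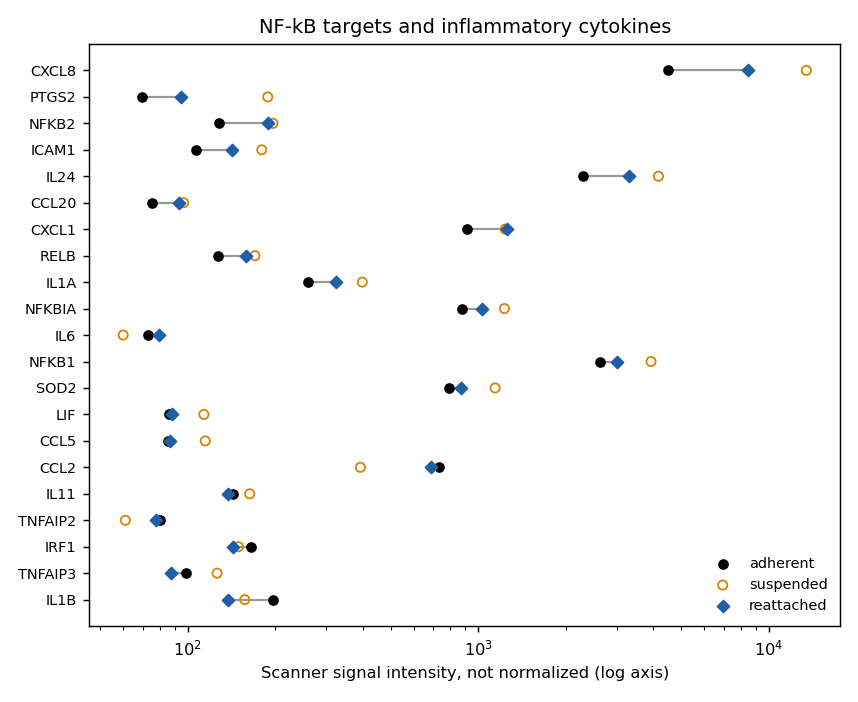
Scanner signal of the 21 measured NF-kB targets and inflammatory cytokines on a log axis, before normalization, with 1 array per state. Filled circles are adherent, open circles suspended and diamonds reattached cells, ordered by the normalized difference. CXCL8 is the top row and IL1B the bottom row of that order, with signals of 8450 and 137 after reattachment.

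The promoter of CXCL8 is shown since this was the only gene of the brightest class past 2-fold, and it passed on both probes. The 250 bases before its start, from RefSeq on GRCh38.p14 at chr4:73740319-73740568 on the plus strand, held 2 of the searched motifs, in capitals: an AP-1 motif (letters TGANTCA) at -137 and an NF-kB motif (letters GGANTTTCC) at -91, counted from the start of the gene.
CXCL8: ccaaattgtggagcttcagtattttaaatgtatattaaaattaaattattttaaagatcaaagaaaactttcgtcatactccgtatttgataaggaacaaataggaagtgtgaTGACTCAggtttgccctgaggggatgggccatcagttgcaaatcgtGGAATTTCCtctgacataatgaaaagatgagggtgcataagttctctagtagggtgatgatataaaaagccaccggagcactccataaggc

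The NF-kB letters were chosen after the values were seen. They were searched on both strands from 250 bases before to 50 bases after each start, so a site also counts as its reverse complement. Promoters were found for 17 of the 21 measured NF-kB genes, and 7 of the 17 (41.2%) held the motif, against 1.64% of 27305 promoters in the table and 1.58% of the 8818 promoters of genes compared. The list was made of known NF-kB targets and cytokines, so a high share of these letters follows from its making. The share thus says nothing about reattachment. A match describes the letters and not binding. To set the sites beside the values, the motif with its flanks is given for 5 further genes, with the motif in capitals and each sequence written on the strand of its gene. CXCL1 lies at chr4:73869290-73869348 (plus), ICAM1 at chr19:10270909-10270967 (plus), NFKBIA at chr14:35404797-35404855 (minus), NFKB1 at chr4:102501286-102501344 (plus) and TNFAIP3 at chr6:137867167-137867225 (plus), on GRCh38.p14.
CXCL1: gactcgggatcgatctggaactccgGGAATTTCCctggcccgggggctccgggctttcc
ICAM1: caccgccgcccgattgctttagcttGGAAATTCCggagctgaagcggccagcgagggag
NFKBIA: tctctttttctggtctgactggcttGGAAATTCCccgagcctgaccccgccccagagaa
NFKB1: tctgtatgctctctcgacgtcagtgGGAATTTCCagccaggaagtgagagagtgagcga
TNFAIP3: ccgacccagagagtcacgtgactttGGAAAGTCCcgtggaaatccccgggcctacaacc
The first 4 genes differed by 0.55, 0.62, 0.31 and 0.28, and TNFAIP3 by -0.22 with the same motif. The windows of PTGS2 and NFKB2 held none of the searched letters, and other spellings of an NF-kB site were not searched. Among all genes at 1.5-fold or more, the NF-kB motif was in 4 of 67 promoters of higher genes and 1 of 93 promoters of lower genes.

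Immediate early genes, which respond within minutes to growth signals, lay on both sides of 0. Their median was -0.0025 over 16 measured genes, of which 2 passed 1.5-fold higher, against 0.878% of all genes. EGR3 read 148 adherent, 350 suspended and 217 reattached and differed by 0.74. FOS read 141, 243 and 189 and differed by 0.59, while its relative FOSL1 read 338, 315 and 262 and differed by -0.35. NR4A2, a nuclear receptor, read 273, 561 and 366 with probes at 0.55 and 0.63. KLF4, a zinc finger factor, read 653, 493 and 437 with probes at -0.53 and -0.51, and ATF3, a stress-induced factor, read 172, 128 and 125 and differed by -0.53.

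Genes of the adhesion machinery had group medians near 0. Of 17 focal adhesion components 11 were below 0 and 6 above, with a median of -0.11, and 0 passed 1.5-fold in either direction, against 1.97% of all genes. CAV1, the coat protein of caveolae, read 7214 adherent, 3345 suspended and 5135 reattached, with probes at -0.41 and -0.51. Its partner CAV2 read 431, 274 and 312, with probes at -0.44, -0.41 and -0.26. VCL, which encodes vinculin, the link from talin to actin, read 3262, 2756 and 2464 with probes at -0.33 and -0.55. VASP, an actin elongation factor, read 299, 243 and 225 and differed by -0.40. The normalized levels of CAV1, CAV2, VCL and VASP after reattachment all lay between the adherent and the suspended level, those of VCL and VASP close to the suspended one.

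Integrin chains had a median of 0.09 over 15 genes, with 9 above 0 and 6 below. Of these, 2 passed 1.5-fold lower, against 1.09% of all genes, and both were dim. ITGB4, the beta chain of hemidesmosomes, read 117 adherent, 60.4 suspended and 78.0 reattached, with probes at -0.88 and -0.57. ITGB7, a beta chain known from lymphocytes, read 139, 91.0 and 88.6 and differed by -0.90. ITGB3, the beta chain of the vitronectin receptor that is known from invasive melanoma, read 389, 640 and 504 and differed by 0.48. It was highest in suspension.

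The extracellular matrix list held members at both ends. Of 22 genes, 2 passed 1.5-fold higher and 2 lower, against 0.878% and 1.09% of all genes, with a median of -0.02. BGN and LAMA5 were the lower ones, and LAMA5, a laminin chain, read 3420 adherent, 2007 suspended and 2110 reattached and differed by -0.63. LAMA4 and COL6A3 were the higher ones, and COL6A3, a collagen VI chain, read 81.4, 112 and 104 with probes at 0.62 and 0.39. The 2 laminin alpha chains thus differed in opposite directions, LAMA4 by 0.83 and LAMA5 by -0.63. Among matrix proteases and inhibitors the median was 0.08 over 16 genes, and CPA4 was the only one past 1.5-fold.

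The promoter of CPA4 is given as that of the brightest gene among the 15 lowest. The 250 bases before its start, at chr7:130292911-130293160 on the plus strand of GRCh38.p14 (RefSeq), held a TEAD motif (letters GGAATG) at -134 and 2 AP-1 motifs at -48 and -15, in capitals. TEAD factors are the DNA-binding partners of YAP and TAZ.
CPA4: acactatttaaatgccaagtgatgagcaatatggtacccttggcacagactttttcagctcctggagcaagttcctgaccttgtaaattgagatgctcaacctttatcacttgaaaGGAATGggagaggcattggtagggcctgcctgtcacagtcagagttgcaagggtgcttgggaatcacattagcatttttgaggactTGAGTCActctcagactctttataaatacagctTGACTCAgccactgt
The TEAD letters were in 10 of 93 promoters (10.8%) of genes 1.5-fold or more lower and in 10.7% of the promoters of genes compared, so they were no more frequent among lower genes. The AP-1 letters were in 8.60% of promoters of lower genes and 8.96% of those of higher genes, against 4.40% of genes compared and 7.76% of all promoters in the table.

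YAP and TAZ target genes had a median of -0.01 over 20 genes, with 3 past 1.5-fold lower and 0 higher, against 1.09% and 0.878% of all genes. The 3 were dim. AMOTL2, an angiomotin that restrains YAP, read 119 adherent, 109 suspended and 82.1 reattached and differed by -0.76. ANKRD1, a cardiac ankyrin repeat protein, read 101, 53.9 and 75.8 and differed by -0.63. F3, which encodes tissue factor, read 122, 99.2 and 88.9 with probes at -0.63 and -0.06. CCN1, a brighter matricellular target, read 949, 529 and 1085 and differed by 0.28, so its reattached value was the highest of the 3. Targets of the same coactivators thus lay on both sides of the adherent level.

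Keratins and other intermediate filament genes had a median of -0.11, with 7 of 9 below 0. KRT80 read 2904 adherent, 884 suspended and 1668 reattached, with probes at -0.73 and -0.45. KRT8, a simple epithelial keratin, read 102, 61.5 and 76.7 and differed by -0.63. L1CAM, a cell adhesion molecule of neural crest cells, read 168, 79.8 and 115 and differed by -0.67. NGFR, a receptor of neural crest and dedifferentiated melanoma cells, read 107, 62.7 and 76.5 and differed by -0.74. In KRT80, KRT8, L1CAM and NGFR alike, the reattached value lay between the other two.

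The 5 measured SPANX genes, X-linked cancer-testis antigens of sperm, were lower. SPANXA1 read 895 adherent, 259 suspended and 420 reattached, with probes at -1.08 and -0.82. SPANXC differed by -0.83, SPANXB1 by -0.78, SPANXA2 by -0.55 and SPANXD by -0.54. These genes are near-identical copies whose probes may share transcripts, so they may amount to 1 signal. The other cancer-testis genes ranged from -0.35 for MAGEB2 to 0.27 for MAGEA4, and PRAME differed by 0.20. In the list as a whole 13 of 18 were below 0 and 3 passed 1.5-fold lower, against 1.09% of all genes.

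Stress and growth lists differed by small amounts. Unfolded protein response genes had a median of 0.16, with 13 of 17 above 0 and 0 past 1.5-fold, against 1.97% of all genes. HSPA5, the chaperone BiP of the endoplasmic reticulum, read 807 adherent, 1034 suspended and 975 reattached and differed by 0.36. PDIA6, a disulfide isomerase, read 714, 1138 and 903 and differed by 0.42. The transcription factor XBP1 ran the other way, with probes at -0.12 and -0.22. A second probe was available in 3 members and had the sign of the first in 2, both below 0, so no higher member had a second probe of the same sign.

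Targets of p53 had the lowest median of the lists plotted, -0.16, with 13 of 16 below 0 and 2 above. CDKN1A, the cell cycle inhibitor p21, read 1527 adherent, 1535 suspended and 1239 reattached and differed by -0.22. PMAIP1, the death protein NOXA, read 565, 507 and 423 with probes at -0.37 and -0.44. TP53INP1 read 107, 104 and 79.9 and differed by -0.62. In these 3 genes the normalized level was highest in adherent and lowest in reattached cells. ZMAT3, an RNA-binding target of p53, read 2190, 3298 and 3172 and differed by 0.62 on its brightest probe, but its other probes gave 0.02 and -0.25.

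Amino acid response genes driven by ATF4 had a median of -0.11, with 15 of 22 below 0. TRIB3, a pseudokinase, read 680 adherent, 566 suspended and 502 reattached and differed by -0.39, while ASNS, asparagine synthetase, read 1447, 2411 and 1911 with probes at 0.50 and 0.22. Heat shock chaperones had a median of 0.12, with 12 of 16 above 0, and cholesterol genes 0.12, with 12 of 18 above 0. The only chaperone past 1.5-fold was lower, against 1.09% of all genes. It was HSPB8, which read 122 adherent, 108 suspended and 90.6 reattached and differed by -0.59. HSPA1B, an inducible HSP70, read 2387, 2630 and 2845, and INSIG1, which retains the sterol sensor in the endoplasmic reticulum, read 1085, 1315 and 1272 with probes at 0.32 and 0.23. FOXO and insulin targets had a median of 0.16 over 14 genes, led by FBXO32, a muscle ubiquitin ligase, with 233, 423 and 319 and probes at 0.59 and 0.28.

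HLA and antigen presentation genes were above 0 in 14 of 16 cases, with a median of 0.12. Of these genes 0 passed 1.5-fold, against 1.97% of all genes. HLA-B read 762 adherent, 1463 suspended and 1007 reattached and differed by 0.49. HLA-DRA, a class II chain that many melanomas carry, read 6111, 8076 and 7197 with probes at 0.32 and 0.15. B2M, the light chain of class I, ran the other way, with 6453, 7239 and 5419 and 2 probes at -0.17. HLA genes are close in sequence, so a probe may read more than 1 of them.

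Cell division and housekeeping lists lay near 0. Mitotic genes had a median of -0.0095 over 27 genes and replication genes 0.05 over 22, with 0 past 1.5-fold in either list. BUB1, a mitotic checkpoint kinase, read 741 adherent, 778 suspended and 860 reattached and differed by 0.30, and E2F1 read 129, 149 and 102 and differed by -0.42. Ribosomal protein genes had a median of -0.02, glycolytic genes 0.03 and oxidative phosphorylation genes 0.02, and no gene of these 3 lists passed 1.5-fold. The share past 1.5-fold was 1.97% over all genes and 0.508% in the brightest class. Among histone genes 2 of 15 passed 1.5-fold lower, against 1.09% of all genes, namely H2BC5 (-0.95) and H2BC12, which read 1251, 923 and 802 with probes at -0.59 and -0.30. Histone genes are also near-identical copies, so a probe may read more than 1 of them. RN7SK, a small nuclear RNA that binds the elongation factor P-TEFb, read 287, 465 and 189 and differed by -0.64, and was the only one of 17 short structural RNAs past 1.5-fold lower, against the same 1.09%.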

How the data were processed

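RNA of A375 cells in 3 states was hybridised to 1 Illumina array each. For every probe, the deposited scanner table lists an intensity and a detection p-value on each array, per the file headers. The intensities are linear and still hold background, and the smallest step between detection p-values is 1 in 770. Per the labels' protocols, RNA was extracted with Trizol and biotinylated with an Ambion kit. The scanner software was not stated. The authors' deposited second table holds intensity values with a shared median near 58.1 on every array and the same probe order as the scanner table (Spearman correlation 1). It is on a linear scale and uncentred, how it was normalized was not stated, and it served as an alternative.

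The neqc function (limma 3.58.1 under R 4.3.3) corrected background with negative controls inferred from the detection p-values, added 16, and gave quantile-normalized log2 levels over the 3 arrays. Further steps used Python 3.11.15 (pandas 2.3.3, numpy 2.4.6, scipy 1.17.1, matplotlib 3.10.9). Of 47323 probes, 30113 had 1 gene symbol in the platform annotation, 8 had several genes and were not named, and 17202 were unnamed here. A gene's value came from its detected probe of highest mean level. An undetected value was raised to the lowest detected level of its array, which makes the difference a bound. A bound that ran against the detection was set to 0. Genes named were the 15 highest and 15 lowest, the 5 brightest detected on 1 array each way, those with all probes past 1.5-fold, the 4 members farthest from 0 in each list and the 3 reference genes nearest to 0. Rankings left out clone-type symbols. The remaining NF-kB genes and FZD7, SLX1B, SPANXD, MAGEB2, MAGEA4, PRAME, CDKN1A and XBP1 were named after their values were seen. The genes compared, the lists and the rules were chosen with earlier results of these data known. Promoters are from RefSeq (GRCh38.p14). The procedure was tested on simulated data in which only probes well above background were changed. That test did not cover dim genes or values that are bounds. With 1 array per state no test between states was run, and the number of arrays limits the precision.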

Additional observations from a re-analysis of the deposited data

How the results depend on the processing

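None of the 73 named genes past 1.5-fold and none of the 17 list medians of 0.1 or more in size changed sign under the 10 alternatives run. All alternatives reuse the same arrays and these values were taken for their size, so this speaks to processing alone. Among the smaller list medians, 7 changed sign, those of the mitotic and reference genes among them when probes were averaged. Counts of genes past a fold depended on the background. With background left in, 1 gene was 2-fold higher and 5 lower, 29 and 41 passed 1.5-fold, and 3 and 6 probes passed 2-fold. With a normexp offset of 50 the counts were 1, 5, 30, 41, 3 and 6. In the authors' deposited normalized values they were 1, 4, 21, 40, 2 and 5, and the second probe had the sign of the first in 95.2% of genes past 1.5-fold. Cyclic loess left 2 genes 2-fold higher. A detection p-value under 0.05 gave 18 genes and 31 probes 2-fold lower. Background kept in a value shrinks its fold by construction. The share of higher genes among those past 1.5-fold was 44.6% and 34.4% in the authors' deposited values, and past 2-fold it was 26.7%, with 14.3% under cyclic loess and 16.7% with background left in or an offset of 50. CXCL8 ranged from 0.99 to 1.16, TELO2 from -1.77 to -1.53, BGN from -1.52 to -1.41 and SLC25A24 from 0.32 to 1.01. No paired analysis was possible because each state had 1 array, and leaving out a replicate was likewise not possible. Signal over background limits the dim genes: the median detected signal was 4.58 times the undetected one on the adherent array and 4.84 times on the reattached array.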

Other observations

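Probes without a gene name here numbered 3816 among those compared. None of these was 2-fold or more higher after reattachment and 4 were lower, and at 1.5-fold 25 were higher and 56 lower. Over all 18195 probes, 7 were 2-fold or more higher and 16 lower, and at 1.5-fold 175 were higher and 224 lower.

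Other genes detected on 1 of the arrays alone were dim. ADGRA2, an adhesion-type G protein-coupled receptor, read 64.2 adherent, 85.6 suspended and 98.5 reattached and was at least 1.95-fold higher. LHX8, a homeobox factor, read 68.4, 126 and 92.5 and was at least 1.76-fold higher. KCNJ2, an inward rectifier potassium channel, read 106, 61.7 and 67.5 and was at least 1.87-fold lower after reattachment. NELL2, a secreted neural protein, read 100.1, 61.9 and 63.6 and was at least 1.72-fold lower. The adherent array had 567 such genes and the reattached array 170.

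TGF-beta and BMP targets also split. ID3, a dominant negative helix-loop-helix factor, read 217 adherent, 631 suspended and 264 reattached and differed by 0.41, and BAMBI, a decoy receptor, read 2158, 4012 and 2591 and differed by 0.34. TGFBI, a secreted matrix protein, read 1633, 1116 and 1071 and differed by -0.55. TNC, the matrix protein tenascin-C of the invasive melanoma list, read 3770, 6574 and 4935 with probes at 0.47 and 0.49. In ID3, BAMBI and TNC the reattached value lay between the other two, and in TGFBI it lay next to the suspended one. Interferon-stimulated genes had XAF1 at -0.71 and IFIT3 at 0.52, 0.32 and 0.37 on its 3 probes.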
